A study of Mus musculus with 2 samples.

Results

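The cells described here are the basophils and mast cells among immune cells sorted from GL261 gliomas. GL261 is a mouse glioma line, grown here inside the brains of C57BL/6 mice, and the sort took cells with CD45, a surface protein of blood-derived cells and microglia. Droplet-based single-cell RNA sequencing was run on 1 library from tumours of mice given ibudilast at 20 mg/kg into the stomach, 5 times a week for 2 weeks, and on 1 library from tumours of mice given PBS, which its label calls untreated. Both libraries share the tumour line, the mouse strain and the sort, and the number of mice behind each, their ages and whether they were pooled are not given in the sources used here. Members were chosen by measured counts, as barcodes with at least 300 genes, at least 500 UMIs (molecules counted by their identifiers) and under 10% mitochondrial UMIs that held at least 3 UMIs summed over Mcpt8, Cpa3, Ms4a2 and Fcer1a, with C1qa and C1qb under 0.5% of UMIs, fewer than 2 Cd3 UMIs and no Siglech UMI. 112 of 15234 filtered barcodes met this, 37 of 7079 in the ibudilast library and 75 of 8155 in the PBS library. With 1 library per condition there is no replicate check of any difference between conditions, and every interval given is a 95% interval for counting error alone, without the spread between cells or mice.

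Basophils and mast cells are granulocytes that carry the high-affinity IgE receptor and release histamine, proteases, lipid mediators and cytokines when it is cross-linked. Basophils mature in the bone marrow, circulate in blood, respond to IL-3 and are known for rapid IL-4 release. Mast cells leave the marrow as progenitors, mature in tissues under stem cell factor through its receptor Kit, and fill their granules with chymases, tryptases and carboxypeptidase. In mice the protease gene Mcpt8 marks basophils, Mcpt1 and Mcpt2 encode chymases of mucosal mast cells, and Mcpt4, Cma1, Tpsb2 and Cpa3 are known from connective tissue mast cells. In the brain, mast cells are known mainly from the meninges and the perivascular space.

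Splitting the members at 2 Mcpt8 UMIs gave 7 Mcpt8-high cells in the ibudilast library and 18 in the PBS library, and 30 Mcpt8-low cells in the ibudilast and 57 in the PBS library. The Mcpt8-low cells bore out a mast cell label: at least 2 UMIs over Kit, Cma1, Mcpt4, Tpsb2 and Tpsab1, none of which chose the members, were found in 30 of 30 ibudilast cells (100%, interval from 88.4) and 56 of 57 PBS cells (98.2%, interval from 90.6). The Mcpt8-high cells went against a plain basophil label. 5 of 7 Mcpt8-high cells of the ibudilast library and 4 of 18 of the PBS library also carried Mcpt1 and Mcpt2, at a sum of 331 to 1532 UMIs per cell in the ibudilast and 311 to 2834 in the PBS library. Their Mcpt8 counts were 19, 13, 11, 5 and 2 UMIs in the ibudilast library and 4, 3, 2 and 2 in the PBS library. The other Mcpt8-high cells held at most 1 Mcpt1 or Mcpt2 UMI. Over all members the sum of Mcpt1 and Mcpt2 was 0 or from 53 UMIs upward in the ibudilast library, and at most 1 or from 46 UMIs upward in the PBS library, with nothing between.

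The members were therefore also divided at 10 UMIs of Mcpt1 plus Mcpt2, a division made after the values of single cells had been seen. It gave 35 mast-cell-like cells in the ibudilast library and 60 in the PBS library, and 2 basophil-like cells in the ibudilast and 14 in the PBS library, which all had at least 2 Mcpt8 UMIs and under 10 UMIs of those 2 proteases. 1 PBS cell was neither. It had 5 Cpa3 UMIs, 9 of Hdc and 115 of Ccl3, with no Mcpt8 UMI. Since these genes made the division, their levels are given as a description.

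**Figure D1:**
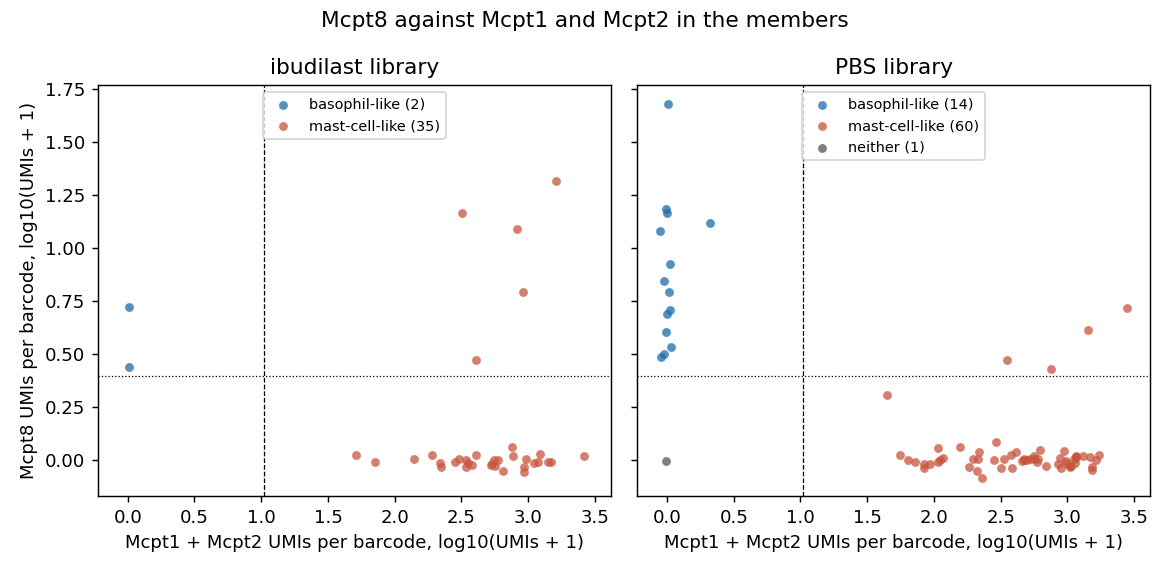
Each point is 1 of the 112 cells, with ibudilast on the left and PBS on the right. The x axis is Mcpt1 plus Mcpt2 and the y axis Mcpt8, both as log10(UMIs + 1) with a small random shift to separate points, the dashed line is the division at 10 UMIs and the dotted line the rule's limit of 2 Mcpt8 UMIs. Cells fall at the far left or far right of the dashed line, and 5 ibudilast and 4 PBS cells lie to its right and above the dotted line.

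The proteases that part these cells are neighbours in the genome. On mm10 with GENCODE M21, Cma1, Cma2, Mcpt1, Mcpt9, Mcpt2, Mcpt4 and Mcpt8 lie in this order within 143.8 kb of chromosome 14. A gap of 19.85 kb parts Mcpt4 (chr14:56059629-56062313, minus strand) from Mcpt8 (ENSMUSG00000022157, chr14:56082166-56085273, minus strand). Mcpt1 (ENSMUSG00000022227) is at chr14:56017971-56020384 on the plus strand, while Cpa3 (ENSMUSG00000001865) is on chromosome 3, at chr3:20215620-20242181 on the minus strand. Because Mcpt8 stood with Mcpt1 and Mcpt2 in some members and without them in others, promoters of these neighbours and of Cpa3 are shown, 250 bases before to 50 after the RefSeq start on GRCm38.p6, 5′ to 3′ on the gene's strand, with capitals marking GATAA, the core motif read by GATA factors such as Gata2, searched on both strands (TTATC on the other).
Mcpt8, chr14:56085148-56085447, minus strand: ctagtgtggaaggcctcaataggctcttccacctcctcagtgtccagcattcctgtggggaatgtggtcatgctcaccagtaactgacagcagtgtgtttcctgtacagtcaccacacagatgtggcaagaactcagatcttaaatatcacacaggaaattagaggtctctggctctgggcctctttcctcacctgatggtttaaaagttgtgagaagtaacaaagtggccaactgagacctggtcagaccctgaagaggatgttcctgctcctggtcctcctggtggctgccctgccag
Mcpt1, chr14:56017714-56018013, plus strand: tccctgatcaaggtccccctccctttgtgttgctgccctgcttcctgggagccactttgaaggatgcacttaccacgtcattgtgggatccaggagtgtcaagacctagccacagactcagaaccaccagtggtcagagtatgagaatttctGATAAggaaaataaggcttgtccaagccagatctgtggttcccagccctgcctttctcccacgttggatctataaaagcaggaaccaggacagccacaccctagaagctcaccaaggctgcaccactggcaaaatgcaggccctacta
Mcpt4, chr14:56062261-56062560, minus strand: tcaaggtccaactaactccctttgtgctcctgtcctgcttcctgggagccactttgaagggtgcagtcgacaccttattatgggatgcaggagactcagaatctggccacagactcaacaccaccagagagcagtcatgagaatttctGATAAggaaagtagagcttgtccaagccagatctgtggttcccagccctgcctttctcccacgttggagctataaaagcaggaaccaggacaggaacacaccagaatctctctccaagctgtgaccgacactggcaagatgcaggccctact
Cpa3, chr3:20242132-20242431, minus strand: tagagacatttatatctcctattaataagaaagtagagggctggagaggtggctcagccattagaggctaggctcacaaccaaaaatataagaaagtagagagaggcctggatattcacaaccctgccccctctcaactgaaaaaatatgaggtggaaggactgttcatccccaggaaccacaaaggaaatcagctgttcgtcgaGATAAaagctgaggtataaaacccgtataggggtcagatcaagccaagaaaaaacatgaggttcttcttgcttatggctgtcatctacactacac
Mcpt1, Mcpt4 and Cpa3 each held 1 match and Mcpt8 none in this window. The match began 98 bases before the start in Mcpt1, 102 in Mcpt4 and 45 in Cpa3. The Mcpt1 and Mcpt4 windows shared an unbroken run of 53 bases, against at most 10 bases between Mcpt8 and either of them, or between Cpa3 and any of the others. A match to this motif is common: 25.4% of 32851 promoters of this length had at least 1. Marker genes were counted otherwise, with a match in any promoter of the gene being enough. By that count 7 of 14 basophil marker genes and 8 of the 10 mast cell marker genes in the promoter table had at least 1. These counts per gene cannot be set against the share of promoters, and no enrichment was tested. Mcpt1, Mcpt2, Mcpt4 and Mcpt9 are related genes, as are Cma1 and Cma2, and Tpsb2 and Tpsab1. Their transcripts were not compared here. How the authors' counting treated reads alike between them was not checked, so the level of each gene is uncertain.

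Basophil-like cells were small in number and in RNA. The 2 ibudilast cells held 3737 and 3987 UMIs and the 14 PBS cells 1515 to 4792 UMIs (median 3298.5), against median depths of 5095 UMIs in ibudilast and 6171 in PBS mast-cell-like cells. Their mitochondrial share was low, at 0.803% and 1.20% in the ibudilast cells and 0.205% to 2.29% in the PBS cells, where mast-cell-like cells had medians of 4.15% in the ibudilast and 4.56% in the PBS library. Mcpt8, the basophil granule protease and part of the rule, was at 4 and 2 UMIs in the ibudilast cells and between 2 and 44 UMIs in the PBS cells (median 5.5). Hdc, which encodes histidine decarboxylase, the enzyme that makes histamine, was not part of the rule and was found in all of them. It stood at 19 and 5 UMIs in the ibudilast cells and at 5 to 48 UMIs in the PBS cells (median 18). Both ibudilast values lie within the PBS range.

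Genes of the mast cell programme were at or near 0 in basophil-like cells. Cpa3, a gene of the rule that encodes mast cell carboxypeptidase, had no UMI in any of them. Cpa3 is also in the list of 14 basophil markers used here. The ibudilast basophil-like cells had a UMI of 11 of those 14 genes, with Cpa3, Prss34 and Itga2 at 0. The PBS basophil-like cells had a UMI of 13 of them, with Cpa3 at 0 and Prss34 at 1 UMI in 1 cell. At least 2 UMIs over Kit, Cma1, Mcpt4, Tpsb2 and Tpsab1 were found in 0 of 2 ibudilast cells (upper limit 84.2%) and in 0 of 14 PBS cells (upper limit 23.2%), and the only one of these UMIs was 1 of Kit in 1 PBS cell. Tph1, which makes the serotonin of mast cells, and Mitf, a transcription factor of mast cell differentiation, had 0 UMIs in the 14 PBS cells, against 1441 and 78.2 CPM (UMIs of the gene scaled to a common total) in PBS mast-cell-like cells. The whole mast cell marker list of 14 genes summed to 258.9 CPM in the ibudilast and 237.9 CPM in the PBS basophil-like cells. That list includes Mcpt1 and Mcpt2, which made the division, so a low sum follows in part from it.

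Gata2, the transcription factor that both lineages need, was present in both. It had 2 and 15 UMIs in the ibudilast basophil-like cells and 0 to 13 (median 3) in the PBS ones, and in the PBS library it was at 1233 CPM in basophil-like and 860.7 CPM in mast-cell-like cells (ratio 1.43, interval 1.06 to 1.90). Cd200r3, an activating receptor of basophils and mast cells, had 4 and 2 UMIs in the ibudilast and 0 to 7 in the PBS basophil-like cells. Cyp11a1, the first enzyme of steroid hormone synthesis, had 1 and 5 UMIs in the ibudilast and 2 to 26 (median 6) in the PBS basophil-like cells. It was at 2271 CPM there, against 628.7 CPM in PBS mast-cell-like cells. Among transcription factors of blood cells, Nfil3 (ratio 76.1, interval 18.4 to 674.1), Cebpb (5.26, interval 3.96 to 6.96) and Runx1 (4.55, interval 2.53 to 7.98) were higher in basophil-like than in mast-cell-like cells of the PBS library.

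The cytokine Il4, a hallmark of basophils, was not in the rule. An Il4 UMI was found in 1 of 2 ibudilast and 10 of 14 PBS basophil-like cells (71.4%, interval 41.9 to 91.6), and in 12 of 35 ibudilast and 18 of 60 PBS mast-cell-like cells (34.3% in ibudilast and 30.0% in PBS cells). Among filtered barcodes outside the group the share was 0.199% in the ibudilast library (median 8267 UMIs over filtered barcodes) and 0.408% in the PBS library (median 12234 UMIs). These barcodes hold other sorted cells as well as any free RNA, so this share does not measure free RNA alone. The highest Il4 count in 1 of them was 16 UMIs in the ibudilast and 4 in the PBS library. The Il4 RNA of PBS basophil-like cells was uneven: the highest 3 of the 14 held 50, 41 and 29 of 138 UMIs, and 4 held none. With each cell thinned to 2000 UMIs the shares were 0 of 2 ibudilast and 9 of 13 PBS basophil-like cells, and 6 of 32 ibudilast and 8 of 53 PBS mast-cell-like cells, after 0 ibudilast and 1 PBS basophil-like cell, and 3 ibudilast and 7 PBS mast-cell-like cells, were left out as shallower. Il6 had 1 and 0 UMIs in the ibudilast basophil-like cells and 0 to 27 (median 6.5) in the PBS ones. Il13, the other classical type 2 cytokine, was rare, with 0 UMIs in the ibudilast cells and 5 UMIs in 4 PBS cells.

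Chemokine RNA made up a large part of the basophil-like transcriptome. The 14 chemokine genes summed to 3.89% and 8.59% of UMIs in the 2 ibudilast cells and to 3.02% to 16.6% (median 8.47%) in the 14 PBS cells, while the medians over mast-cell-like cells were 0.124% in the ibudilast and 0.144% in the PBS library. Ccl3 and Ccl4 encode inflammatory chemokines that attract leukocytes, and Ccl6 and Ccl9 encode ligands of CCR1. Ccl3 had 54 and 74 UMIs in the ibudilast and 5 to 231 (median 82) in the PBS basophil-like cells. Ccl6 had 123 and 24 UMIs in the ibudilast and 37 to 169 (median 85) in the PBS basophil-like cells. It stood at 26426 CPM in PBS basophil-like and at 16.2 CPM in PBS mast-cell-like cells, and Ccl9 at 5687.5 CPM in PBS basophil-like and 8.09 CPM in PBS mast-cell-like cells. A Ccl3 UMI was also found in 53.1% of ibudilast and 65.7% of PBS barcodes outside the group, so a low Ccl3 count in any cell may be free RNA, which was not tested. Further ligands higher in basophil-like than in mast-cell-like cells of the PBS library were Osm (oncostatin M, ratio 22.5, interval 15.8 to 32.7) and Csf1 (the growth factor of macrophages, ratio 35.8, interval 20.2 to 67.5). Areg, which encodes the growth factor amphiregulin, had 64 UMIs in 2 of the 14 PBS cells and none in the ibudilast cells.

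Receptor genes of basophil-like cells differed from those of mast-cell-like cells. Ms4a2 and Fcer1a, the beta and alpha chains of the IgE receptor and genes of the rule, had 5 and 6 UMIs over the 14 PBS cells, and Fcer1g, the signalling chain shared with other Fc receptors, had 155 UMIs in all 14. Csf2rb, the signalling chain of the IL-3 receptor, was in 11 of 14 PBS cells, and Il3ra, its ligand-binding chain, in 5. Lilr4b, of the leukocyte immunoglobulin-like receptor family, was at 2589 CPM in the 2 ibudilast and 2811 CPM in the 14 PBS basophil-like cells, while PBS mast-cell-like cells had 315.7 CPM. Cxcr2 had 11 UMIs in 6 PBS basophil-like cells and 0 in PBS mast-cell-like cells. Il1rl1, the receptor of IL-33, was lower in basophil-like than in mast-cell-like cells of the PBS library (173.0 CPM in basophil-like and 496.5 CPM in mast-cell-like cells, ratio 0.349, interval 0.148 to 0.701). Set against all filtered barcodes outside the group, the PBS basophil-like cells were led by Mcpt8, Il4, Csrp3, Cyp11a1, Il6, Cd200r3, Il13, Car8, Gata2 and Ptger3. Some of these places rest on few UMIs over the 14 cells, with 13 of Csrp3, 5 of Il13, 10 of Car8 and 4 of Ptger3. Outside the group these 4 genes were at 0.0855, 0.0940, 0.205 and 0.0855 CPM in the PBS library, in that order. Ranked by the lower fold of the 2 libraries, Mcpt8-high cells were led by Mcpt8, Gata2 and Cyp11a1. The place of Mcpt8 in both rankings follows from its use in choosing the cells. Ranked by the fold with both libraries pooled, Mcpt8-low cells with mast cell genes were led by Mcpt1, Tph1 and Mcpt2.

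**Figure D2:**
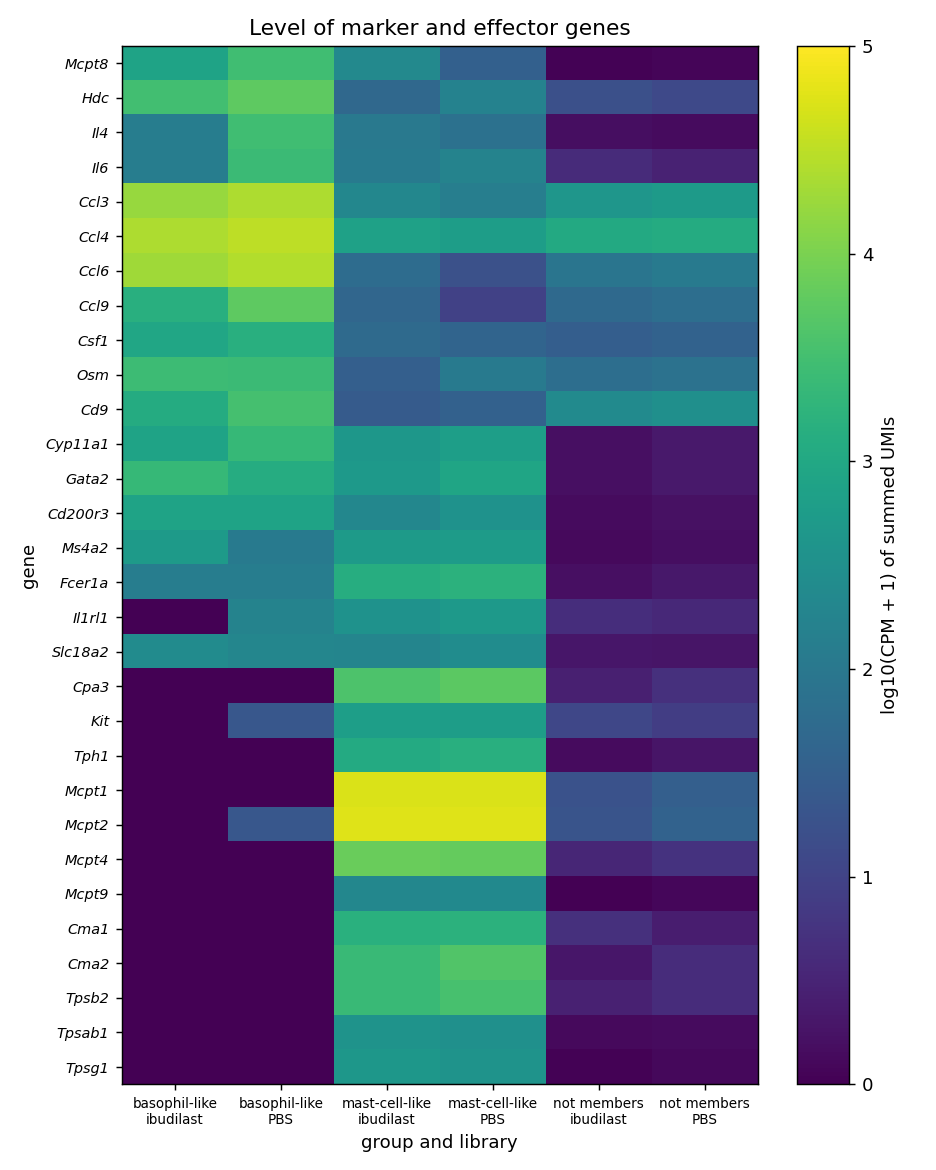
Colour gives log10(CPM + 1) of summed UMIs for each gene (row) in basophil-like cells (2 ibudilast, 14 PBS), mast-cell-like cells (35 ibudilast, 60 PBS) and filtered barcodes that are not members (7042 ibudilast, 8080 PBS). Hdc, Ccl3, Ccl4, Ccl6 and Ccl9 are high in the basophil-like columns, while Cpa3 and the rows from Mcpt1 to Tpsg1 are high in the mast-cell-like columns.

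Mast-cell-like cells were dominated by their chymases. Mcpt1 and Mcpt2 together took 1.35% to 19.9% of a cell's UMIs in the ibudilast library (median 10.48%) and 1.61% to 19.2% in the PBS library (median 9.64%). Mcpt4, a chymase of connective tissue mast cells, was found in all 35 ibudilast cells at 1 to 186 UMIs (median 32) and in 57 of 60 PBS cells at 0 to 179 (median 30.5). Kit, the receptor of stem cell factor, was found in 30 of 35 ibudilast cells at 0 to 12 UMIs (median 4) and in 57 of 60 PBS cells at 0 to 10 (median 3). Mcpt1 or Mcpt2 RNA in every cell follows from the division, and some Mcpt4 UMIs may be reads of these related genes, which was not tested. Tpsb2, a connective tissue marker that is not one of these chymase genes, had a UMI in 30 of 35 ibudilast and 52 of 60 PBS cells. In those cells it was found together with the mucosal chymases. A Mcpt1 or Mcpt2 UMI was also found in 27.2% of ibudilast and 35.3% of PBS barcodes outside the group, and 10 or more such UMIs in 6 ibudilast and 21 PBS barcodes outside it. How much of this was free RNA was not tested.

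The other proteases varied from cell to cell. Tpsb2, a tryptase, was at 0 to 53 UMIs in the ibudilast cells (median 15) and 0 to 154 in the PBS cells (median 14). Its neighbour Tpsab1 was found in 22 ibudilast and 31 PBS cells and never without Tpsb2, while Tpsb2 without Tpsab1 was seen in 8 ibudilast and 21 PBS cells. Cma1, a chymase, was found in 28 ibudilast and 39 PBS cells. Cma2, the gene next to it, was found in 11 ibudilast and 32 PBS cells and was the most uneven of the 10 genes for which this was worked out, apart from Hdc in the ibudilast cells: the highest 5 cells held 95.8% of its UMIs in the ibudilast and 60.7% in the PBS library. Cma1 and Cma2 occurred together in 8 ibudilast and 22 PBS cells. Cma1 stood alone in 20 ibudilast and 17 PBS cells, Cma2 alone in 3 ibudilast and 10 PBS cells, and neither was found in 4 ibudilast and 11 PBS cells.

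Genes for small mediators showed a contrast with basophil-like cells. Tph1 was found in 32 of 35 ibudilast cells at 0 to 25 UMIs (median 5) and in 55 of 60 PBS cells at 0 to 39 (median 6). Hdc was found in 5 ibudilast cells (11 UMIs) and 19 PBS cells (60 UMIs), and had a UMI in 8.73% of ibudilast and 7.51% of PBS barcodes outside the group. In PBS cells Hdc was at 5687.5 CPM in the basophil-like and 161.9 CPM in the mast-cell-like group (ratio 35.1, interval 26.5 to 47.3). Slc18a2, the pump that loads histamine and serotonin into granules, was found in 23 ibudilast and 47 PBS mast-cell-like cells. Alox5 and Alox5ap, which start leukotriene synthesis, were in 25 and 34 of the 35 ibudilast cells and in 48 and 53 of the 60 PBS cells, and Hpgds, a prostaglandin D synthase, was in 16 ibudilast and 33 PBS cells. Mrgprb2, the mouse receptor for peptide and drug triggers of connective tissue mast cells, had 5 UMIs in the ibudilast and 14 in the PBS cells. Mrgprb1 had 0 UMIs in both libraries.

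**Figure D3:**
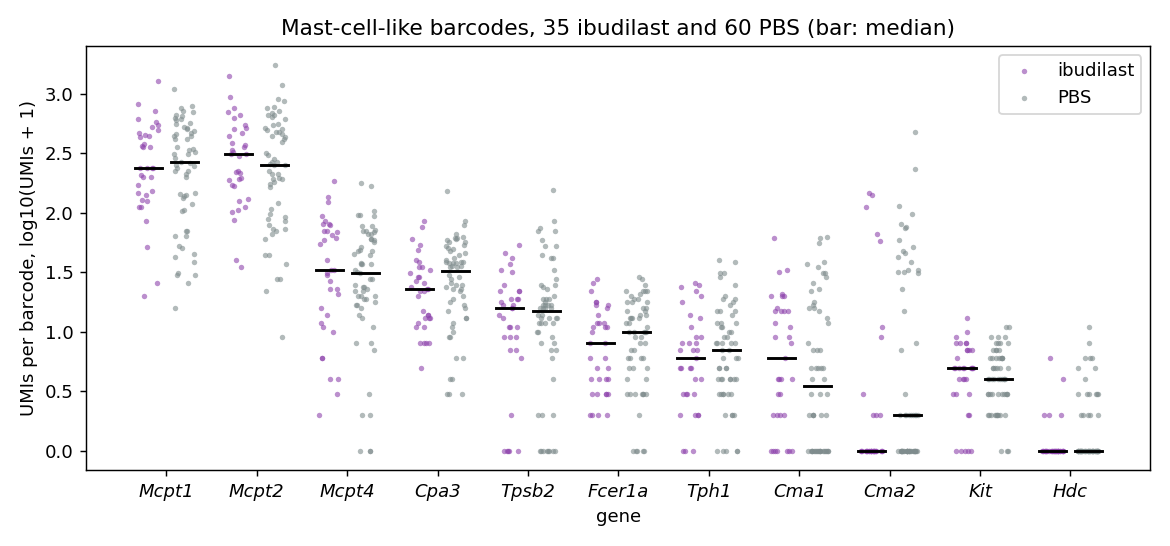
Each point is 1 mast-cell-like cell, 35 from the ibudilast library (purple, left of each pair) and 60 from the PBS library (grey, right). The y axis is log10(UMIs + 1) for 11 genes, bars are medians, and points overlap between the libraries for every gene shown, with Cma2 at 0 in 24 ibudilast and 28 PBS cells.

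The first comparison between conditions was the share of these cells in the sorted population. All members made up 0.523% of filtered barcodes in the ibudilast library and 0.920% in the PBS library (ratio 0.568, interval 0.373 to 0.853). Mcpt8-high cells made up 0.0989% in the ibudilast and 0.221% in the PBS library (ratio 0.448, interval 0.158 to 1.12), an interval that holds 1. Mcpt8-low cells made up 0.424% in the ibudilast and 0.699% in the PBS library (ratio 0.606, interval 0.376 to 0.960). By the later division, basophil-like cells made up 0.0283% in the ibudilast and 0.172% in the PBS library (ratio 0.165, interval 0.0182 to 0.717). Mast-cell-like cells made up 0.494% in the ibudilast and 0.736% in the PBS library (ratio 0.672, interval 0.430 to 1.04). Under the other limits tried, the ratios of the Mcpt8-high, Mcpt8-low, basophil-like and mast-cell-like groups stayed below 1, but whether an interval held 1 depended on the limit. With mitochondrial UMIs under 5% the ratio was 0.765 (interval 0.426 to 1.35) for Mcpt8-low and 0.348 (interval 0.1003 to 0.982) for Mcpt8-high cells. The Mcpt8-low interval also held 1 with the highest doublet scores left out (ratio 0.652, interval 0.402 to 1.04) and with cells thinned to 2000 UMIs (ratio 0.709, interval 0.436 to 1.14). The mast-cell-like interval lay below 1 with no C1q limit (ratio 0.584, interval 0.378 to 0.890) and with mitochondrial UMIs under 20% (ratio 0.555, interval 0.370 to 0.822). The basophil-like ratio rests on 2 ibudilast cells, 1 of which was among the 6% of barcodes with the highest doublet scores. It was 0.0823 with those barcodes left out, 0.230 (interval 0.0246 to 1.08) with C1q limited to 0.1% of UMIs, and 0 (upper limit 0.675) when 5 Mcpt8 UMIs were asked for, which left no ibudilast cell.

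**Figure D4:**
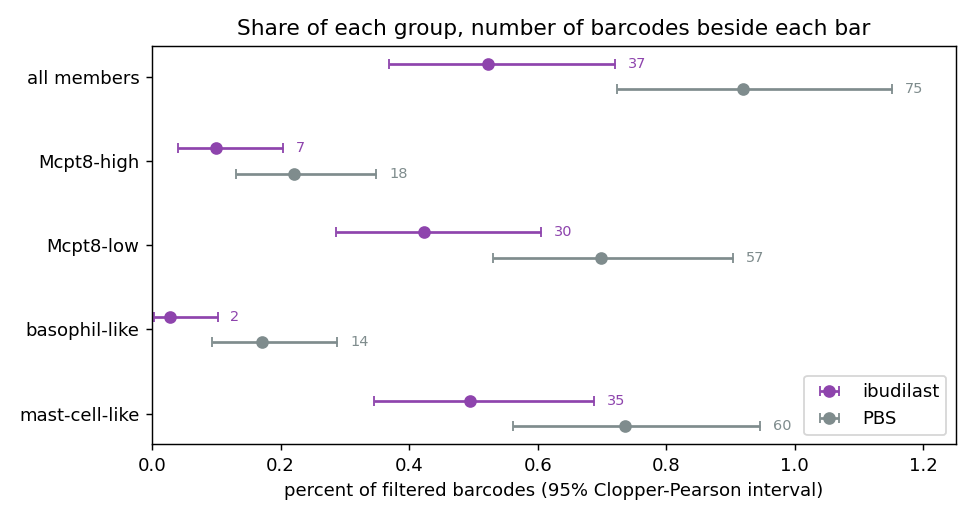
Points are the share of each group among filtered barcodes in percent, ibudilast (purple) above PBS (grey), bars are 95% Clopper-Pearson intervals and the numbers are cells. All 5 ibudilast points lie left of their PBS points, and the intervals of the ibudilast and PBS points overlap for the Mcpt8-high, Mcpt8-low, basophil-like and mast-cell-like groups.

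The libraries also differed in depth and in what the filters removed. The ibudilast library had 82196922 UMIs and the PBS library 119113794. Barcodes that met the rule but were over the mitochondrial limit numbered 9 in the ibudilast and 23 in the PBS library, all with at least 10 Mcpt1 and Mcpt2 UMIs. Without any filter 46 of 8483 ibudilast barcodes (0.542%) and 98 of 8968 PBS barcodes (1.09%) met the rule. Another 2 ibudilast and 16 PBS filtered barcodes had the marker UMIs but went over a C1q, Cd3 or Siglech limit. Just inside the marker limit, at 3 or 4 UMIs, were 1 ibudilast and 6 PBS cells. The ibudilast cell had 4 Mcpt8, 19 Hdc and 123 Ccl6 UMIs, and 4 of the PBS cells had at least 2 Mcpt8 UMIs, 5 to 19 of Hdc and 42 to 110 of Ccl6. Just outside, at 2 UMIs, were 1 ibudilast and 8 PBS barcodes. The ibudilast one had no Hdc or Ccl6 UMI, while 2 of the PBS ones had 8 and 15 Hdc UMIs and 22 and 93 Ccl6 UMIs. 19 barcode sequences occurred in both libraries, none of them in a member.

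The second comparison asked which genes differed between conditions within mast-cell-like cells, the larger group. Mcpt1 and Mcpt2 made the division and Cpa3 and Ms4a2 were genes of the rule, so their ratios are given as a description. The leading chymases were close to equal. Mcpt1 was at 51693 CPM in ibudilast and 51445 CPM in PBS cells (ratio 1.005, interval 0.982 to 1.03), Mcpt2 had a ratio of 0.981 (interval 0.959 to 1.003) and Mcpt4 of 1.09 (interval 1.03 to 1.17). Kit (1.06, interval 0.852 to 1.31) and Ms4a2 (0.979, interval 0.775 to 1.23) had intervals that hold 1. Cpa3 was at 3992 CPM in ibudilast and 5423 CPM in PBS cells (ratio 0.736, interval 0.680 to 0.797), and Tpsb2 at 2459 CPM in ibudilast and 3472.5 CPM in PBS cells (ratio 0.708, interval 0.640 to 0.783). Gata2 had 0 to 11 UMIs per cell in the ibudilast (median 3) and 0 to 19 in the PBS cells (median 5), and its ratio was 0.566 (interval 0.452 to 0.705). Per-cell values overlapped for all of these genes.

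A gene was counted as higher or lower at a ratio past 1.5-fold. Of 1296 genes with at least 50 UMIs over both libraries, 123 (9.49%) were higher and 95 (7.33%) lower in ibudilast mast-cell-like cells. For the gene lists, where a gene needed 20 UMIs, 16.6% of 3138 genes were higher and 11.2% lower, with a median log2 ratio of 0.09. Against that background, mast cell markers, which include Mcpt1 and Mcpt2, had 0 of 12 higher and 1 lower (median -0.07). The lower one was Cma2 (ratio 0.541, interval 0.490 to 0.596), whose UMIs sit in few cells. IgE receptor and signalling genes had 0 of 12 higher and 1 lower (median 0.04), the lower one being Plcg1, a phospholipase of the receptor's pathway. Basophil markers had 1 of 12 higher and 5 lower (median -0.48). The higher one was Mcpt8, a gene of the rule, at 50 UMIs in 5 ibudilast cells and 12 UMIs in 5 PBS cells, and the lower ones were Hdc (0.301, interval 0.143 to 0.578), Gata2, Cd200r3 (0.581), Il3ra (0.616) and Il6 (0.652).

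Among cytokines, 1 of 8 was higher and 3 were lower (median -0.10). Tnf was higher (ratio 1.90), and Vegfa, the vascular growth factor (3 UMIs in the ibudilast and 43 in the PBS library, ratio 0.115, interval 0.0227 to 0.358), Osm (7 UMIs in the ibudilast and 43 in the PBS library, ratio 0.267) and Il6 were lower. Among chemokines 4 of 7 were higher and 1 lower (median 0.60). The 39 ibudilast UMIs of Cxcl2, a ligand of CXCR2, came from 1 cell, and Ccl3 had a ratio of 1.51. Cxcl9 and Cxcl10, ligands of CXCR3, had ratios of 6.77 and 2.69, with Cxcl9 in 7 of 35 ibudilast and 12 of 60 PBS cells and Cxcl10 in 6 ibudilast and 14 PBS cells. Both genes were also found at 852.0 and 830.0 CPM in ibudilast and at 1078 and 746.3 CPM in PBS barcodes outside the group, above their level in mast-cell-like cells, and the part of free RNA in the ratios was not tested. Type I interferon response genes had 3 of 15 higher and 0 lower (median 0.36), and the same genes had a median of 0.28 in barcodes outside the group. With each cell weighted alike the median of the list in mast-cell-like cells turned to -0.09. The higher ones were Ifitm3 (1.88), Usp18 (2.12) and Rsad2 (1.64), and Ifitm3 was at 1.41 with each cell weighted alike and 1.495 with C1q limited to 0.1%. Ifitm3 encodes an antiviral membrane protein and Usp18 the enzyme that removes ISG15 from proteins.

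Of 14 genes of dissociation stress, which respond within minutes to handling and signalling, 1 was higher and 4 lower in ibudilast mast-cell-like cells (median -0.38, against 0.17 for the same genes outside the group). Fos was at 2796 CPM in ibudilast and 4603 CPM in PBS cells (ratio 0.607, interval 0.553 to 0.666), Junb had a ratio of 0.578 and Ier3 of 0.566, while Atf3 was at 2.46. The list summed to 2.69% of UMIs in the median ibudilast and 3.30% in the median PBS mast-cell-like cell, and to medians of 7.32% over the ibudilast and 9.30% over the PBS basophil-like cells. NF-kB target genes had 1 of 8 higher and 3 lower (median -0.42, or -0.06 with the highest doublet scores left out), with Tnfaip3, an inhibitor of the pathway, at 0.463. Cell cycle genes had 5 of 9 higher and 1 lower (median 0.62, or 0.18 without mast-cell-like cells that had at least 2 Mcpt8 UMIs), among them Pcna (1.57), Birc5 (2.19) and Stmn1 (1.64), with Mki67 at 0.379, from 6 ibudilast and 26 PBS UMIs.

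Ibudilast inhibits phosphodiesterases, the enzymes that break down cyclic nucleotides, and the cytokine MIF, whose receptor is CD74. Pde4b had 0 UMIs in ibudilast and 4 in PBS mast-cell-like cells, and Pde4d had 14 in ibudilast and 12 in PBS cells (ratio 1.92, interval 0.823 to 4.53). Mif was at 376.6 CPM in ibudilast and 210.5 CPM in PBS mast-cell-like cells (ratio 1.79, interval 1.30 to 2.47), and Cd74 had a ratio of 1.26 (interval 1.04 to 1.52). Both genes had higher levels outside the group, Mif at 566.1 CPM in ibudilast and 632.3 CPM in PBS barcodes. Of 8 response genes of cAMP and CREB, 2 were higher and 2 lower (median -0.20). The 14 basophil-like PBS cells held 0 UMIs of Pde4b and 2 of Pde4d, and the 2 ibudilast cells held none of either.

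By the ranking used to name genes, the lowest in ibudilast mast-cell-like cells that kept their ratio without the top cell of each library were Prnp, Hs3st1, Dusp6, Cdkn1a, Zfp36l1 and Bhlhe40, chosen for that after their values were seen. Prnp encodes the prion protein, and was found in 25 of 35 ibudilast cells (71 UMIs) and 54 of 60 PBS cells (290 UMIs), with a ratio of 0.402 (interval 0.306 to 0.523). Hs3st1, which encodes a sulfotransferase that modifies heparan sulfate, had 20 UMIs in the ibudilast and 94 in the PBS library (ratio 0.349, interval 0.204 to 0.571). Dusp6, a phosphatase that acts on ERK, had a ratio of 0.329, or 0.580 with each cell weighted alike, Cdkn1a, a cell cycle inhibitor, of 0.369, Zfp36l1, which promotes mRNA decay, of 0.269 and Bhlhe40, a transcription factor, of 0.270. The highest included Slfn5 (2.86, interval 1.67 to 4.997), Psmb2, a proteasome subunit found in 23 of 35 ibudilast and 24 of 60 PBS cells (2.55, interval 1.65 to 3.998), and Pam16, of mitochondrial protein import (2.46). 1 cell in each library held most UMIs of Lyz2, at 88.5% of the ibudilast and 75.3% of the PBS count, and its ratio of 2.03 was 1.03 without them. Ifi203 (2.26) was at 1.249, Cst3 (0.498) at 0.758, Ccl5 (0.202) at 0.433, Hdc (0.301) at 0.192, Phlda1 (0.197) at 0.0279, Pnp (2.19) at 3.37 and Atf3 at 3.74 without the top cell of each library. With the highest doublet scores left out, Cst3 turned to a ratio of 1.16.

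**Figure D5:**
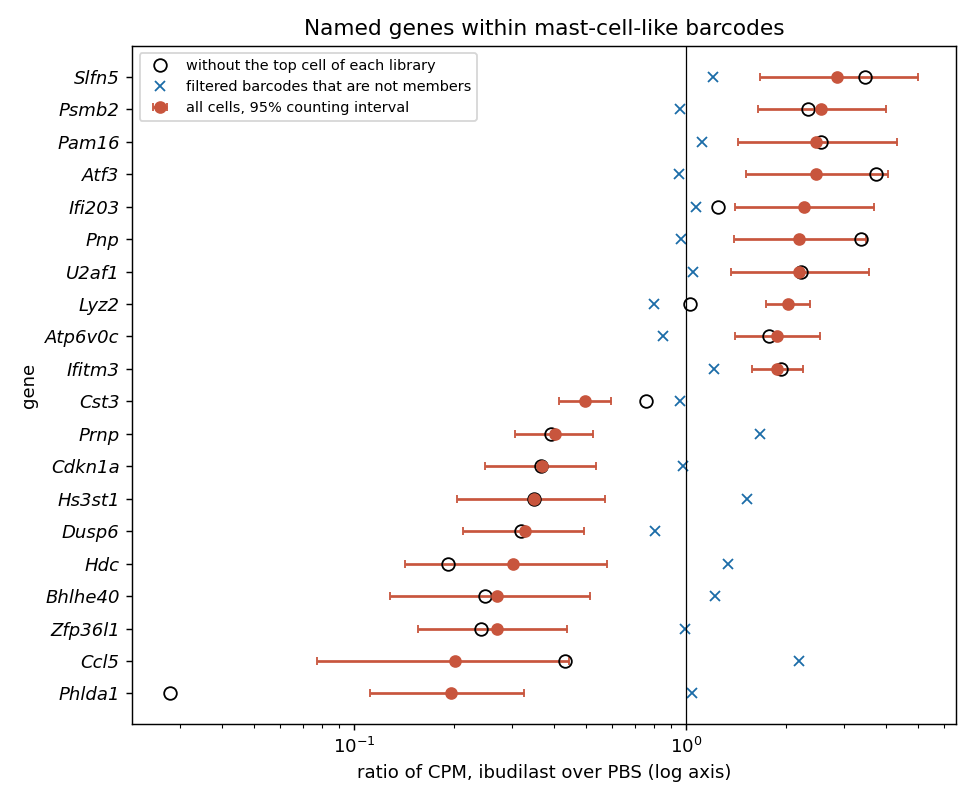
For 20 named genes (rows), the x axis gives the ratio of CPM, ibudilast over PBS, on a log axis. Filled points with 95% counting intervals are all mast-cell-like cells (35 ibudilast, 60 PBS), open circles leave out the top cell of each library and crosses are filtered barcodes that are not members; the open circles of Lyz2 and Phlda1 lie far from their filled points.

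Within Mcpt8-high cells, the group the rule calls basophils, 19% of 326 genes with at least 50 UMIs were higher and 26.4% lower in the 7 ibudilast than in the 18 PBS cells, or 62 and 86 genes. With each cell weighted alike 103 genes were higher and 91 lower, and with at least 5 Mcpt8 UMIs asked for 89 were higher and 68 lower. These cells differed in makeup, with 5 of 7 in the ibudilast and 4 of 18 in the PBS library being mast-cell-like, and the part of that makeup in the ratios was not tested. Of genes with at least 20 UMIs (21.4% of 808 higher, 27.7% lower), cytokines had 0 of 9 higher and 7 lower (median -2.35), chemokines 1 of 6 higher and 5 lower (median -2.10) and basophil markers 1 of 11 higher and 6 lower (median -1.26). Mast cell markers had 3 of 10 higher and 0 lower (median 0.49). Il4 was at 148.5 CPM in the ibudilast and 1575 CPM in the PBS Mcpt8-high cells (ratio 0.0943, interval 0.0372 to 0.199), with a UMI in 4 of 7 ibudilast and 11 of 18 PBS cells. Basophil-like cells held 1 of the 7 ibudilast Il4 UMIs and 138 of the 139 PBS ones. The ibudilast Il4 UMIs were thus mostly in mast-cell-like cells and the PBS ones mostly in basophil-like cells. Ccl9 had 11 UMIs in the ibudilast and 263 in the PBS cells (ratio 0.0783), Cebpb 2 in the ibudilast and 95 in the PBS cells (ratio 0.0394), and Il1b 1 in the ibudilast and 122 in the PBS cells (ratio 0.0154). Il1b was found in 1 of 7 ibudilast and 5 of 18 PBS cells, and 1 PBS cell held 46.7% of its PBS UMIs. Tpsg1, a membrane-bound tryptase, had 38 UMIs in the ibudilast and 12 in the PBS cells (ratio 5.93, interval 3.03 to 12.5), all of them in mast-cell-like cells. Id2, a transcriptional inhibitor, had a ratio of 4.01, and Zfp36l2, which promotes mRNA decay, a ratio of 4.29. In each library 1 cell held most Id2 UMIs (55.8% in ibudilast, 69.4% in PBS), and 1 PBS cell held 54.8% of the PBS Zfp36l2 UMIs. Without the top cell of each library the ratios were 7.24 for Tpsg1, 8.01 for Id2 and 7.94 for Zfp36l2.

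The members also held RNA of some markers of other cells. Eosinophil markers, a list of 9 genes, had 0 UMIs in ibudilast basophil-like and mast-cell-like cells and summed to 21.6 CPM in PBS basophil-like and 16.2 CPM in PBS mast-cell-like cells, with Epx, Prg2, Ear1, Ear2 and Ear6 at 0 throughout. Neutrophil markers summed to 0 CPM in ibudilast and 259.5 CPM in PBS basophil-like cells, with S100a8 and Retnlg at 0, and to 131.4 CPM in ibudilast and 107.8 CPM in PBS barcodes outside the group. In the PBS basophil-like cells only 2 of the 8 genes were found, S100a9 and Cxcr2, and most of the sum was the Cxcr2 given above. Monocyte markers, with 2 of 6 genes in ibudilast and 4 of 6 in PBS basophil-like cells, summed to 3366 CPM in the ibudilast and 3589.8 CPM in the PBS basophil-like cells, and Chil3 and Vcan were at 0 in both. They summed to 1192 CPM in ibudilast and 1924 CPM in PBS mast-cell-like cells, with all 6 genes found in each, and to 2836 CPM in ibudilast and 1632 CPM in PBS barcodes outside the group. NK and ILC markers, which include Areg, summed to 258.9 CPM in ibudilast and 1665 CPM in PBS basophil-like cells, with Ncr1 and Prf1 at 0 in both, and to 1598.5 CPM in ibudilast and 719.8 CPM in PBS barcodes outside. Macrophage markers, of which 7 of 8 had a UMI in each library, took 0% to 0.779% of UMIs in ibudilast mast-cell-like cells (1157 CPM summed) and 0% to 0.420% in PBS ones (952.4 CPM). Outside the group they summed to 14079.5 CPM in the ibudilast and 18508 CPM in the PBS library. C1qc (1.92) and Ms4a7 (3.47), of that list, were higher in ibudilast mast-cell-like cells. Of filtered barcodes with the marker UMIs, 1 ibudilast and 15 PBS barcodes were over the C1q limit and left out. The part of this limit and of RNA of other cell types in the ratios was not tested.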

How the data were processed

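The authors deposited UMI counts, neither normalised nor log-transformed, for each gene and barcode. Per the file headers they come from Cell Ranger 6.1.1, and the submitters' processing notes name the build mm10. Barcodes were already called as cells, and empty droplets were not used here.

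From these counts, barcodes were filtered and members chosen by the rule given above, in Python 3.11.15 with scipy 1.17.1. The members, gene lists and comparisons were chosen with earlier results of these data known. Counts were summed per group and library and scaled to CPM. Shares have Clopper-Pearson intervals, sums exact Poisson intervals and ratios exact conditional binomial intervals, all at 95% and for counting error only. With 1 library per condition no test was possible. Scrublet in scanpy 1.11.5 set automatic thresholds that marked 0 ibudilast and 1 PBS barcodes, so the 6% highest scores served as the doublet alternative and no barcode was removed in the values given first.

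Named genes were list members, the 20 leading genes of Mcpt8-high and 10 of Mcpt8-low cells, and the 10 highest and 10 lowest genes between libraries with at least 50 UMIs, a UMI in 25% of cells of the higher library and the interval bound nearest to 1 beyond 1.25-fold. The same ranking was applied to mast-cell-like cells after the data were seen. List medians used members with at least 20 UMIs. Other genes given were chosen after their values were seen. The division at 10 Mcpt1 and Mcpt2 UMIs, the mitochondrial limit of 20% and the ratios without top cells were added after the data were seen. Other settings tried were other Mcpt8, C1q and mitochondrial limits, doublets left out, thinning to 2000 UMIs, each cell weighted alike, other scaling and another UMI minimum. Promoters came from RefSeq on GRCm38.p6 and gene positions from GENCODE M21. The sums and intervals were tested on simulated data with counting error alone, which cannot show how they hold under the spread between cells.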

Additional observations from a re-analysis of the deposited data

Results flagged for a closer look

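5 named genes had a ratio of ibudilast to PBS past 1.5-fold in one direction in the members and past 1.5-fold in the other direction in the filtered barcodes that are not members. None of these differences was tested, since each library is 1 sample. In Mcpt8-high cells, Tpsg1 was higher in the ibudilast library (ratio 5.93) while it was lower outside the group (0.332), where its level was 0.0880 CPM in the ibudilast and 0.265 CPM in the PBS library. Its UMIs in Mcpt8-high cells were all in those that were mast-cell-like. Ly6c2, a monocyte gene, was lower in Mcpt8-high cells (0.0576) and higher outside the group (1.89), and 1 PBS cell held 78.5% of its PBS UMIs.

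In mast-cell-like cells, Ccl5 was lower in the ibudilast library (0.202) and higher outside the group (2.18), and 1 PBS cell held 59.6% of its PBS UMIs. Prnp was lower in mast-cell-like cells (0.402) and higher outside (1.67), at 314.6 CPM in ibudilast and 782.5 CPM in PBS mast-cell-like cells and at 19.7 CPM in ibudilast and 11.8 CPM in PBS barcodes outside. Hs3st1 was lower in mast-cell-like cells (0.349) and higher outside (1.52), where it stood at 1.42 CPM in the ibudilast and 0.931 CPM in the PBS library.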

How the results depend on the processing

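No paired analysis was possible because each condition has 1 library. Of 96 values for shares and counts under the alternatives, 88 moved by less than their counting interval or 1.5-fold. The other 8 were these, and the cause was not tested except where the alternative itself lowers the number of cells or genes asked for. With at least 5 Mcpt8 UMIs the ratio of basophil-like shares was 0, and the share of PBS Mcpt8-high cells with an Il4 UMI was 87.5%. Thinned to 2000 UMIs, the share of ibudilast Mcpt8-high cells with an Il4 UMI was 14.3%, from 1 of 7 cells. With each cell weighted alike, 103 genes were higher in ibudilast Mcpt8-high cells, against 62. With a minimum of 20 UMIs, 173 genes were higher and 224 lower in Mcpt8-high cells, and 520 higher and 352 lower in mast-cell-like cells. With the highest doublet scores left out, Cst3 in mast-cell-like cells turned to a ratio of 1.16 and the monocyte marker median to 0.0569 on the log2 scale. Of the single genes and lists, 35 of 319 values moved in Mcpt8-high and 29 of 387 in mast-cell-like cells. Few cells limit the basophil-like values: with 2 ibudilast cells, a share of 1 of 2 has an interval of 1.26% to 98.7%. Tpsg1 gave no ratio with at least 5 Mcpt8 UMIs, since its PBS sum was then 0.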
